A study of Mus musculus with 6 samples.

Results

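Regulatory T cells are CD4+ lymphocytes that restrain immune responses, and in tumors they are known for damping the attack of other T cells. The factor FOXP3 sets their identity, the interleukin 2 receptor alpha chain CD25 lets them capture interleukin 2, and the receptors ICOS, OX40 and GITR pass costimulatory signals from antigen-presenting cells. Interleukin 10 is a cytokine of regulatory T cells, macrophages and B cells. It binds its alpha receptor chain, which pairs with a beta chain shared with other cytokines, and signals through JAK1, TYK2 and STAT3. The 9 genes described here were chosen by name to cover this axis: Foxp3, Il2ra, Ikzf2, Icos, Tnfrsf4, Tnfrsf18, Il10, Il10ra and Il10rb. Each had 1 row of its own on the array, and they are 9 of the 19938 genes tested.

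The tumors came from Renca, a kidney carcinoma line of BALB/c origin, injected into BALB/c mice at either of 2 sites. In the intrakidney group (n = 3) the cells went into the outer cortex of the kidney, and in the subcutaneous group (n = 3) under the skin. Every tumor came from its own mouse and was snap frozen 12 days after injection. Both groups share the cell line and the host strain, no group received a drug or carried an engineered allele per the labels, and the age and sex of the mice were not given. Total RNA of the whole tumor was hybridised to Affymetrix Mouse Gene 1.0 ST arrays, and all levels are log2 RMA values, on which a larger value is more signal and equal steps are equal ratios. In whole tumors, fewer cells of a type and less RNA per cell cannot be told apart.

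The 6 arrays had medians between 7.08 and 7.11. Between pairs of arrays, correlations over the 19938 genes (genes being no independent replicates) ran from 0.991 to 0.994 for 2 intrakidney tumors, from 0.995 to 0.997 for 2 subcutaneous tumors, and from 0.990 to 0.996 for 1 of each. With limma, 46 genes passed an adjusted p of 0.05, which is 0.231% of the genes tested. The intrakidney arrays differed in tubule transcripts: the mean over 12 proximal tubule markers was 6.48, 6.81 and 7.40 in intrakidney tumors 1, 2 and 3, against 6.38 to 6.54 in the subcutaneous tumors. Of these markers, 11 of 12 had a higher intrakidney mean, and Aqp1, a water channel also present in capillaries, was at 8.13 ± 0.40 in intrakidney tumors and 9.17 ± 0.11 in subcutaneous tumors (SD, n = 3 each).

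None of the 9 genes passed the threshold in limma (adjusted p from 0.379 to 0.956), while 2 of 9, Icos and Foxp3, had an unadjusted p under 0.05, both with a lower intrakidney mean. Over all genes, 3.71% were lower at that unadjusted level. The intrakidney mean was below the subcutaneous mean for 8 of 9, a direction that 52% of all genes showed, and the median log2 fold change, intrakidney minus subcutaneous, was -0.18, beside -0.0058 over all genes. For 3 of 9, Foxp3, Icos and Tnfrsf18, every intrakidney array lay below every subcutaneous array, against 6.53% of all genes. The remaining 6 genes had overlapping groups.

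**Figure D1:**
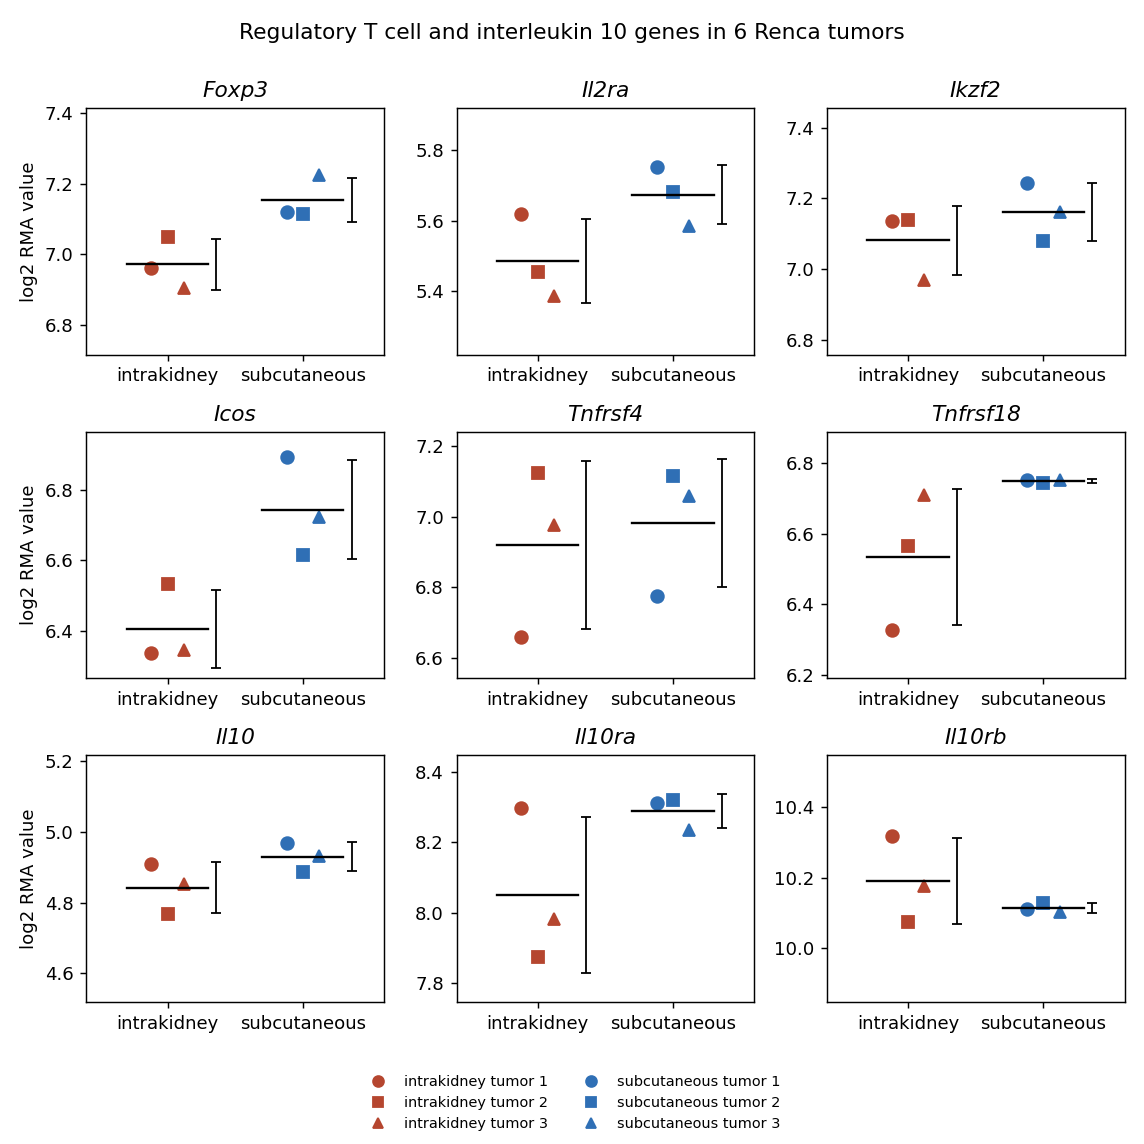
Log2 RMA value of each gene in each tumor, intrakidney on the left and subcutaneous on the right of each panel; horizontal lines are group means and the bars beside them are ± 1 SD (n = 3 per group). All panels span the same height of 0.7 log2 units; Foxp3, Icos and Tnfrsf18 have intrakidney tumors entirely below the subcutaneous ones, and Il10rb has 2 of its intrakidney tumors above them.

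Foxp3 (transcript cluster 10598292), the lineage factor of regulatory T cells, measured 6.96, 7.05 and 6.90 in intrakidney tumors 1, 2 and 3, against 7.12, 7.12 and 7.23 in subcutaneous tumors 1, 2 and 3. All intrakidney tumors were lower, but the gap between the groups, between 7.05 and 7.12, was smaller than the range within either group. The log2 fold change was -0.18 ± 0.07 (SE), a signal ratio of 0.881 with a 95% interval of 0.781 to 0.994, and it did not pass in limma over all genes (unadjusted p = 0.0419, adjusted p = 0.570). RMA can compress changes of dim genes, and whether it did so for Foxp3 was not tested. Without intrakidney tumors 2 and 3 the difference was -0.19 (adjusted p = 0.476).

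Ikzf2 (10355312) encodes Helios, an Ikaros family factor of most thymus-derived regulatory T cells and of some activated T cells. It measured 7.14, 7.14 and 6.97 in intrakidney tumors, against 7.24, 7.08 and 7.16 in subcutaneous tumors. With overlapping groups, Ikzf2 had a log2 fold change of -0.08 (95% interval -0.27 to 0.11, adjusted p = 0.879 with limma). Without intrakidney tumors 2 and 3 it was -0.03, and without 1 array it ranged from -0.12 (subcutaneous tumor 2 left out) to -0.03 (intrakidney tumor 3 left out).

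Il2ra (10469278), the CD25 chain that gives the interleukin 2 receptor its high affinity, measured 5.62, 5.46 and 5.39 in intrakidney tumors, against 5.75, 5.68 and 5.59 in subcutaneous tumors. Intrakidney tumor 1 was above subcutaneous tumor 3, and intrakidney tumors 2 and 3 were below all subcutaneous tumors. The log2 fold change was -0.19 (95% interval -0.39 to 0.02, adjusted p = 0.644 with limma), or -0.05 when intrakidney tumors 2 and 3 were left out (adjusted p = 0.867). Il2rb, the beta chain that carries the signal, had the lowest adjusted p of the interleukin 2 receptor signalling genes: it measured 7.15, 6.73 and 6.63 in intrakidney tumors, against 7.42, 7.35 and 7.16 in subcutaneous tumors. Those groups were apart by a narrow margin, with a log2 fold change of -0.47 ± 0.14 (SE, adjusted p = 0.404).

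The rest of the interleukin 2 receptor list showed small differences of both signs. Of 10 genes listed, 8 were measured, 0 passed the threshold, and 1, Il2rb, was lower at an unadjusted p under 0.05 in limma, against 3.71% of all genes. The median log2 fold change was 0.07. Socs2 and Cish, feedback inhibitors that STAT5 induces, had log2 fold changes of 0.16 and 0.10, and Stat5a itself 0.11 (adjusted p = 0.719, 0.796 and 0.797). Il2rg and Jak3 were not analysed here.

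Icos (10346799), a costimulatory receptor of activated and regulatory T cells, had the largest difference of the 9 genes. It measured 6.34, 6.53 and 6.35 in intrakidney tumors, against 6.89, 6.61 and 6.72 in subcutaneous tumors, so that the closest pair, intrakidney tumor 2 and subcutaneous tumor 2, differed by less than the spread within either group. The log2 fold change was -0.34 ± 0.10 (SE), a signal ratio of 0.791 with a 95% interval of 0.675 to 0.926 (unadjusted p = 0.00934, adjusted p = 0.379 with limma). Leaving out intrakidney tumors 2 and 3 gave -0.41 (adjusted p = 0.297). Icosl, which encodes the ICOS ligand of antigen-presenting cells, had a log2 fold change of -0.0068, with overlapping groups.

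Tnfrsf4 and Tnfrsf18, which encode the receptors OX40 and GITR of the tumor necrosis factor receptor family, lie next to each other in the mouse genome, with 0 protein-coding genes between them in the RefSeq annotation. Tnfrsf18 (10511290) measured 6.33, 6.57 and 6.71 in intrakidney tumors, against 6.75, 6.74 and 6.75 in subcutaneous tumors. The subcutaneous tumors lay within 0.010 of each other, intrakidney tumor 3 was just below them and intrakidney tumor 1 was farthest away. The log2 fold change was -0.22 (95% interval -0.45 to 0.02, adjusted p = 0.652 with limma). With intrakidney tumors 2 and 3 left out it was -0.42 (adjusted p = 0.214), and with intrakidney tumor 1 left out it was -0.11 (adjusted p = 0.648).

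Tnfrsf4 (10511282) measured 6.66, 7.13 and 6.98 in intrakidney tumors, against 6.78, 7.12 and 7.06 in subcutaneous tumors. Each group had 1 low tumor, number 1 in both, and the groups overlapped almost completely. Tnfrsf4 had a log2 fold change of -0.06 (95% interval -0.39 to 0.26, adjusted p = 0.956 with limma), and its sign turned to 0.07 without intrakidney tumor 1 and to 0.0027 without subcutaneous tumor 2. Leaving out intrakidney tumors 2 and 3 gave -0.32 (adjusted p = 0.403). The ligand genes Tnfsf4 and Tnfsf18, which encode OX40L and GITRL, had log2 fold changes of 0.19 (adjusted p = 0.790) and -0.11 (adjusted p = 0.922), both from dim signals.

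**Figure D2:**
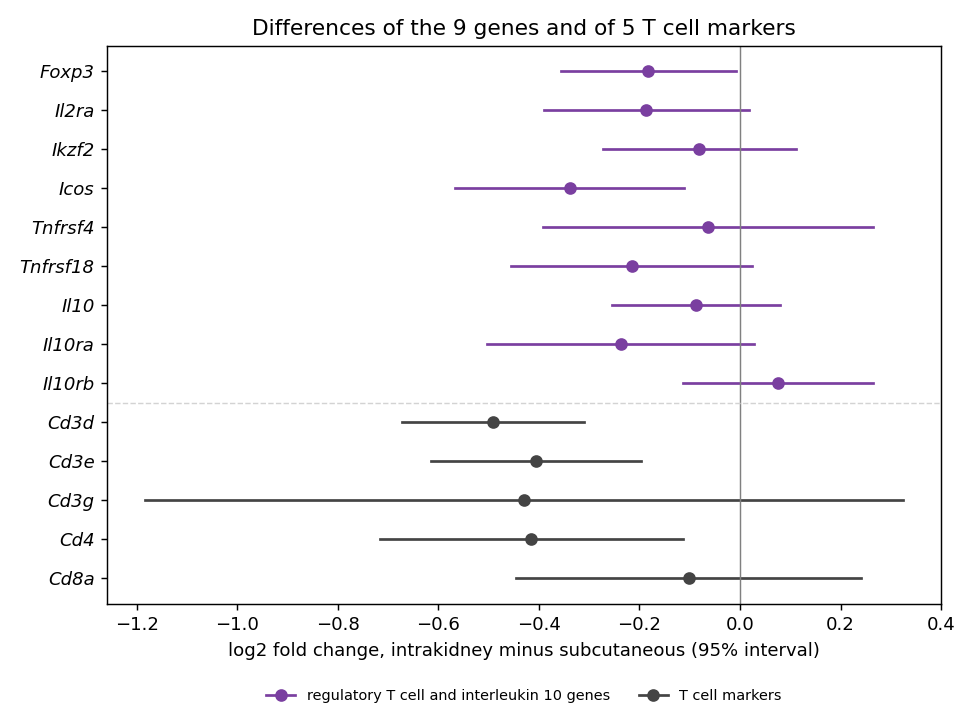
Log2 fold change, intrakidney minus subcutaneous, of the 9 genes and of 5 T cell markers; points are limma estimates and lines their 95% intervals before any adjustment for the number of genes. Among the 9, Icos at -0.34 lies nearest to Cd3d, Cd3e and Cd4, and Il10rb is the only 1 of the 14 genes with an estimate above 0.

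Il10 (10349603), the cytokine itself, was dim on every array, at 4.91, 4.77 and 4.85 in intrakidney tumors, against 4.97, 4.89 and 4.93 in subcutaneous tumors. Intrakidney tumor 1 lay within the subcutaneous range and the other two below it. The log2 fold change was -0.09 (95% interval -0.25 to 0.08, adjusted p = 0.832 with limma). No detection call was used, so olfactory receptor genes, which are silent in most tissues, served as a rough guide to the signal of an unexpressed gene, with the limit that probes differ in brightness. Of 1027 such genes, 425 (41.4%) had a mean signal at or above that of Il10, so its signal cannot be told from background and a difference in Il10 RNA was not detectable at this level. For Il2ra 19.7% of them were at or above, for Icos 3.99%, for Tnfrsf18 3.21%, for Tnfrsf4 1.56%, for Foxp3 1.46% and for Ikzf2 1.27%. For Il10ra 2 of 1027 were at or above, and for Il10rb 0.

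Il10ra (10593050), the chain that binds interleukin 10 and is found mainly on leukocytes, measured 8.30, 7.87 and 7.98 in intrakidney tumors, against 8.31, 8.32 and 8.23 in subcutaneous tumors. Intrakidney tumor 1 lay inside the subcutaneous range, and intrakidney tumors 2 and 3, the arrays with more tubule transcripts, lay below it. Its log2 fold change was -0.24 (95% interval -0.50 to 0.03, adjusted p = 0.655 with limma), and it was 0.0094 (adjusted p = 0.978) without intrakidney tumors 2 and 3. Leaving out intrakidney tumor 1 gave -0.36 and leaving out intrakidney tumor 2 gave -0.15 (adjusted p = 0.196 and 0.750). The part of kidney tissue in this difference was not tested.

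Il10rb (10436841), the accessory chain that also serves the receptors of interleukin 22 and of lambda interferons, measured 10.32, 10.08 and 10.18 in intrakidney tumors, against 10.11, 10.13 and 10.10 in subcutaneous tumors. Intrakidney tumors 1 and 3 were above the subcutaneous tumors and intrakidney tumor 2 below them, and the subcutaneous range was 0.027. Il10rb had a log2 fold change of 0.08 (95% interval -0.11 to 0.26, adjusted p = 0.890 with limma). Leaving out intrakidney tumors 2 and 3 gave 0.20 (adjusted p = 0.421), leaving out intrakidney tumor 1 gave 0.01 (adjusted p = 0.973), and leaving out intrakidney tumor 2 gave 0.13 (adjusted p = 0.706). Other genes of the interleukin 10 family and its receptors showed little: 0 of 8 measured passed, all 8 log2 fold changes lay between -0.12 and -0.0040, and in limma 0 had an unadjusted p under 0.05. The member with the lowest adjusted p was Il20ra, a chain of the interleukin 20 receptor, at -0.12 (adjusted p = 0.876), itself dim with 48.5% of olfactory receptor genes at or above it, followed by Ifnlr1, the lambda interferon receptor chain, at -0.06 (adjusted p = 0.915). Il22ra1, the interleukin 22 receptor chain, was at -0.08 and the cytokine gene Il20 at -0.04. Il22 was not analysed here.

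Macrophages make interleukin 10 and carry its receptor, so the receptor genes were also set against 11 macrophage markers of the same tumor. The mean over these markers was 10.47, 10.29 and 10.16 in intrakidney tumors, against 10.29, 10.23 and 10.22 in subcutaneous tumors, which overlap. Relative to that mean, Il10ra was at -2.17, -2.41 and -2.18 in intrakidney tumors, against -1.98, -1.91 and -1.99 in subcutaneous tumors. All intrakidney tumors were lower, by 0.29 on average (exact permutation p = 0.1, two-sided, a value that 3 arrays against 3 cannot go below). The difference was -0.21 without intrakidney tumors 2 and 3. For Il10rb the same difference was 0.02 (exact permutation p = 0.9), with overlapping groups. The share of all genes with separate groups on this ratio was not counted, so the separation cannot be read as particular to Il10ra. Among the macrophage markers themselves 0 of 11 passed. Cd14, the lipopolysaccharide co-receptor, was higher on every intrakidney array with a log2 fold change of 0.44 (adjusted p = 0.0744 with limma), and Itgam, Mertk and Aif1 were at 0.19, 0.12 and -0.17, with adjusted p = 0.657, 0.778 and 0.832.

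Downstream of the interleukin 10 receptor, most of the signalling genes had a higher intrakidney mean, unlike Il10ra. Of 10 listed genes, all measured, 8 had a higher intrakidney mean, against 9564 of all 19938 genes. Of the 10, 0 passed the threshold, and the median log2 fold change was 0.14. For 5 of 10, every intrakidney array lay above every subcutaneous array, against 8.41% of all genes, and 4 had an unadjusted p under 0.05 in limma, against 4.72% of all genes. These target genes also respond to other cytokines that activate STAT3 or NF-kappaB, so the list is not specific to interleukin 10. It was chosen with earlier results of these data known, so its counts are a description only.

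Bcl3, a nuclear partner of NF-kappaB that interleukin 10 induces in macrophages, measured 8.998, 9.10 and 9.12 in intrakidney tumors, against 8.25, 8.38 and 8.57 in subcutaneous tumors. The groups were clearly apart, with a log2 fold change of 0.67 ± 0.10 (SE) that lay just outside the threshold (adjusted p = 0.0559 with limma over all genes). Bcl3 passed when dim genes were left out, with an offset, with an intensity trend and with array weights. It did not pass after quantile normalization, with every row tested or with the mean of a gene's rows. Nor did it pass with a replicate block or with any 1 array left out. Socs3, the feedback inhibitor of STAT3 signalling, measured 9.07, 9.16 and 9.44 in intrakidney tumors, against 8.55, 8.62 and 8.75 in subcutaneous tumors, a log2 fold change of 0.58 ± 0.11 (SE, adjusted p = 0.140). Sbno2, a corepressor of the macrophage response to interleukin 10, measured 9.80, 9.77 and 9.84 in intrakidney tumors, against 9.37, 9.48 and 9.45 in subcutaneous tumors. It had a log2 fold change of 0.37 ± 0.07 (SE, adjusted p = 0.125), and its intrakidney tumors were tightly grouped above the rest.

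The kinases and the factor upstream of these targets differed less. Stat3 measured 10.94, 10.98 and 10.96 in intrakidney tumors, against 10.87, 10.81 and 10.89 in subcutaneous tumors, with groups apart by a small margin and a log2 fold change of 0.10 (adjusted p = 0.757 with limma). Jak1 was at -0.0064 and Tyk2 at 0.04. Il4ra, the interleukin 4 receptor chain that interleukin 10 raises in macrophages, had a log2 fold change of 0.19 (adjusted p = 0.510), higher on every intrakidney array.

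**Figure D3:**
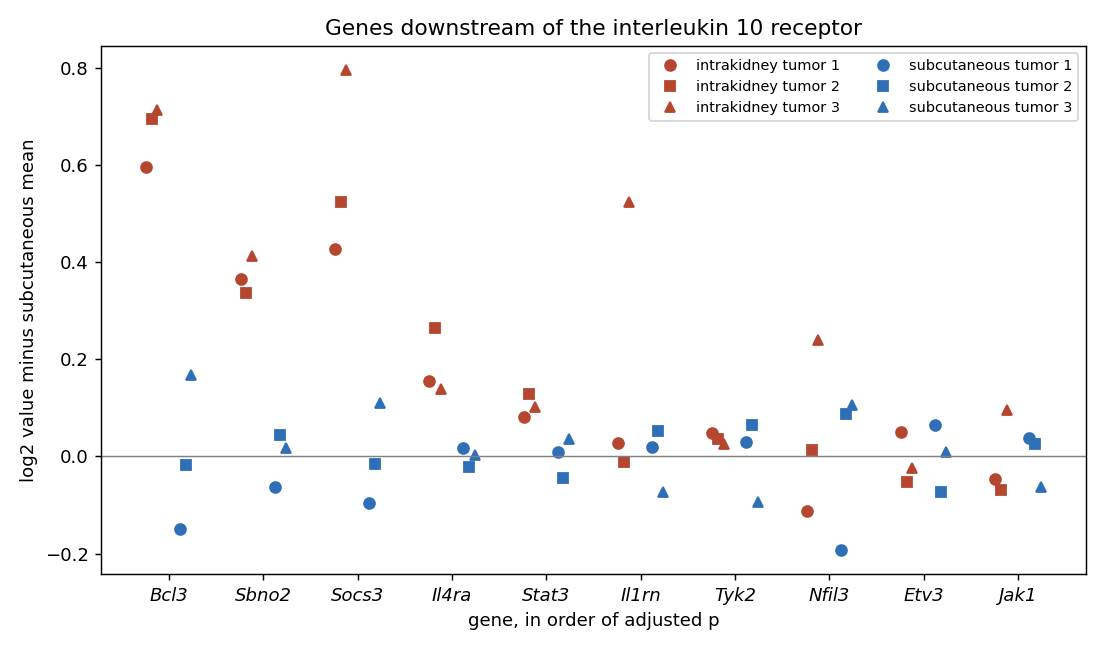
Log2 value of 10 genes downstream of the interleukin 10 receptor in each tumor, minus the gene's subcutaneous mean, with intrakidney tumors left and subcutaneous tumors right within each gene. Bcl3, Sbno2, Socs3, Il4ra and Stat3 have every intrakidney tumor above every subcutaneous tumor; none of them passed the threshold over all genes.

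Other genes tied to regulatory T cells, listed by name, gave small differences of both signs. Of 22 listed, 20 were measured, 0 passed, 13 had a lower intrakidney mean against 52% of all genes, and the median log2 fold change was -0.07. For 4 of 20, every intrakidney array lay below every subcutaneous array, against 6.53% of all genes, and for 0 above. This list, too, was chosen with earlier results of these data known. Prdm1, which encodes BLIMP-1, a factor of effector regulatory T cells that is needed for their interleukin 10, measured 7.11, 6.85 and 6.93 in intrakidney tumors, against 7.27, 7.33 and 7.21 in subcutaneous tumors. Its groups were apart, with a log2 fold change of -0.30 ± 0.09 (SE, adjusted p = 0.376 with limma). Ctla4, the inhibitory receptor of regulatory and activated T cells, measured 6.34, 6.04 and 5.95 in intrakidney tumors, against 6.51, 6.37 and 6.46 in subcutaneous tumors, a log2 fold change of -0.34 (adjusted p = 0.441). Entpd1, the ATP-hydrolysing enzyme CD39, and the factor gene Gata3 were at -0.29 and -0.23 (adjusted p = 0.601 and 0.654), with overlapping groups. The costimulatory partner genes of antigen-presenting cells and T cells had 0 of 7 past the threshold, with the lowest adjusted p for Cd80 at 0.25 (adjusted p = 0.671), Il2 at 0.21 (0.690), Tnfsf4 at 0.19 (0.790) and Cd86 at -0.15 (0.808). Il2 and Tnfsf4 were as dim as Il10, with 53.0% and 39.3% of olfactory receptor genes at or above them.

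General T cell markers lay on the same side as Foxp3 and Icos. All 13 measured had a lower intrakidney mean, 0 passed, and the median log2 fold change was -0.14. The mean over these markers was 7.10, 7.05 and 6.88 in intrakidney tumors, against 7.29, 7.17 and 7.19 in subcutaneous tumors. Cd3d, a chain of the T cell receptor complex, measured 5.71, 5.85 and 5.78 in intrakidney tumors, against 6.19, 6.35 and 6.28 in subcutaneous tumors, with groups clearly apart and a log2 fold change of -0.49 ± 0.08 (SE, adjusted p = 0.0797 with limma). Cd3e was at -0.41 (adjusted p = 0.206), Thy1 at -0.15 (adjusted p = 0.652), and the helper cell co-receptor Cd4 at -0.41 (adjusted p = 0.417), while Cd8a, the co-receptor of cytotoxic T cells, was at -0.10 (adjusted p = 0.931). Cd3g ranged widely within the intrakidney group, at 8.31, 7.35 and 6.98, against 8.33, 7.76 and 7.83 in subcutaneous tumors.

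Markers of other lymphocytes lay on both sides of 0. B cell markers had 0 of 7 past the threshold and a median log2 fold change of 0.03, with Ms4a1 at 0.30, Cd79a at -0.24, Pax5 at 0.07 and Cd79b at 0.04. NK cell markers had 0 of 6 past the threshold and a median of -0.13, with Klrb1c at -0.30, Klrk1 at -0.15, Klrd1 at -0.16 and Nkg7 at 0.15. Klrb1c was not above background by the same guide, with 61.6% of olfactory receptor genes at or above it, and Ms4a1 and Cd79a were dim (26.5% and 22.4%). In limma no B cell or NK cell marker had an unadjusted p under 0.05 (0 of each list). Among the tubule markers, Cyp2e1 at 2.55, Pck1 at 0.64, Fbp1 at 0.73 and Aqp1 at -1.04 had the lowest adjusted p (0.209, 0.436, 0.673 and 0.114). The part that T cell number or kidney tissue has in the lower Foxp3 and Icos means was not tested.

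To ask whether the genes kept pace with the T cell receptor genes, each but Il10, whose signal was at background, was expressed relative to the mean of Cd3d, Cd3e and Cd3g in the same tumor. That mean was 7.12, 6.86 and 6.63 in intrakidney tumors, against 7.43, 7.24 and 7.27 in subcutaneous tumors, a difference of -0.44. All ratios share this denominator, so each mean difference is above that of the gene itself by that amount, and 55.9% of all genes had every intrakidney tumor above every subcutaneous tumor on this ratio. For 3 of the 8 genes the groups were separate in this way, which is below that share. The mean over all 13 T cell markers differed less, by -0.21, so the size of these ratios depends on the reference chosen. Among the Cd3 genes, Cd3g alone fell steeply over intrakidney tumors 1, 2 and 3, at 8.31, 7.35 and 6.98. Cd3d was at 5.71, 5.85 and 5.78 there, and Cd3e at 7.34, 7.38 and 7.15. Foxp3 over Cd3 genes was at -0.16, 0.19 and 0.27 on the log2 scale in intrakidney tumors, against -0.31, -0.12 and -0.05 in subcutaneous tumors. Intrakidney tumors 2 and 3 were above all subcutaneous tumors and intrakidney tumor 1 was among them, and the difference of 0.26 had a two-sided exact permutation p = 0.3. Without intrakidney tumors 2 and 3 it was 0.0016, and without intrakidney tumor 3 alone 0.17. Relative to Cd3d and Cd3e only, Foxp3 was at 0.44, 0.43 and 0.44 in intrakidney tumors, against 0.14, 0.14 and 0.23 in subcutaneous tumors. The place of intrakidney tumor 1 among the subcutaneous tumors thus depends on Cd3g.

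Ikzf2 over Cd3 genes was at 0.018, 0.28 and 0.34 in intrakidney tumors, against -0.19, -0.16 and -0.11 in subcutaneous tumors, a difference of 0.36 with all intrakidney tumors higher (exact permutation p = 0.1), or 0.17 without intrakidney tumors 2 and 3. Il2ra gave 0.26, also with separate groups (exact permutation p = 0.1), or 0.14 without intrakidney tumors 2 and 3. Icos gave 0.10 with overlapping groups (exact permutation p = 0.5), or 0.015 when intrakidney tumor 3 and 0.26 when intrakidney tumor 1 was left out. Il10rb gave 0.52 with separate groups (exact permutation p = 0.1), and Tnfrsf4, Tnfrsf18 and Il10ra gave 0.38, 0.23 and 0.20 with overlapping groups (exact permutation p = 0.3, 0.5 and 0.2). The Tnfrsf18 value was 0.020 when intrakidney tumor 3 and 0.45 when intrakidney tumor 1 was left out, that of Tnfrsf4 was 0.22 without subcutaneous tumor 1 and 0.63 without intrakidney tumor 1, and that of Il10ra was 0.12 without intrakidney tumor 3. These p-values are not adjusted over the 12 such tests of the main setting, those against the macrophage markers included. Nor are they adjusted over the further tests run with Cd3d and Cd3e alone or with arrays left out. With 3 arrays a group none can go below 0.1, and a ratio of this kind shows unequal change in signal, not a change in either gene.

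**Figure D4:**
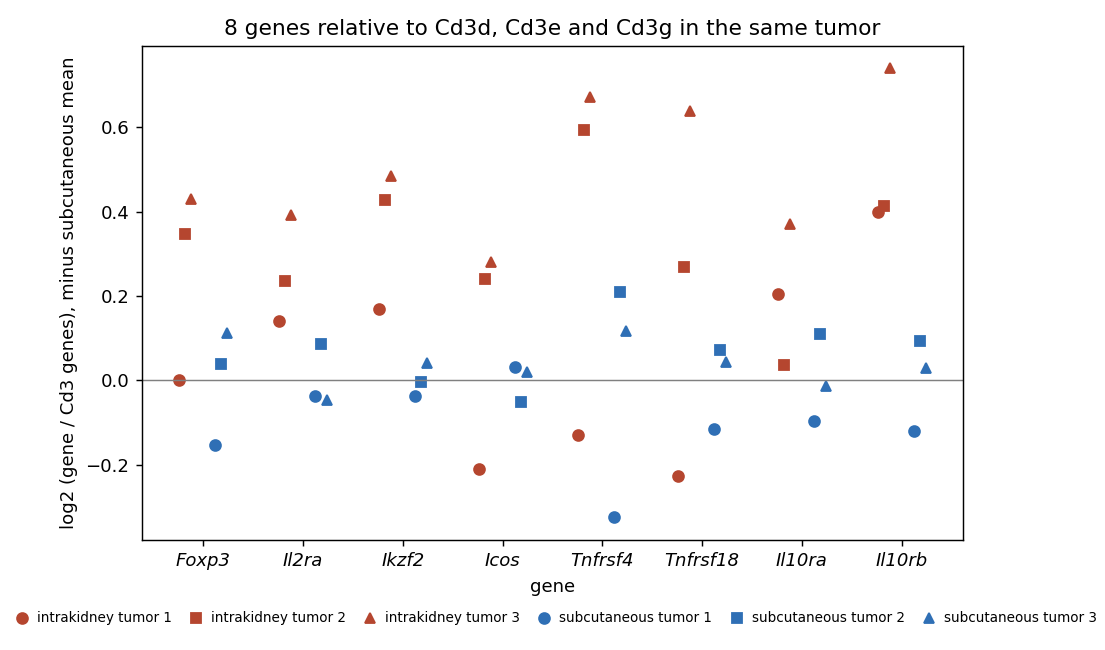
Log2 ratio of 8 genes to the mean of Cd3d, Cd3e and Cd3g in the same tumor, minus the subcutaneous mean of that ratio, with intrakidney tumors left and subcutaneous tumors right within each gene. Intrakidney tumors 2 and 3 lie above intrakidney tumor 1 for 7 of the 8 genes. The shared denominator was lower in those tumors (6.86 and 6.63, against 7.12 in intrakidney tumor 1), which raises every ratio there. That fall was mostly in Cd3g, at 8.31, 7.35 and 6.98 in intrakidney tumors 1, 2 and 3. Cd3d was at 5.71, 5.85 and 5.78 there, and Cd3e at 7.34, 7.38 and 7.15. For Ikzf2, Il2ra and Il10rb all intrakidney tumors lie above all subcutaneous ones, as they do for 55.9% of all genes.

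The genes whose levels ran most like those of Foxp3, Il2ra and Il10 over the 6 arrays were sought among 3756 other genes with a range of at least 0.5. For Foxp3 these were Slc10a4 (Pearson r = 0.988), Pde4c (0.982) and Defb23 (0.971). For Il2ra they were Cdk19 (0.997), Hoxd10 (0.993) and the receptor partner Il2rb (0.987), and for Il10 they were Tfdp2 (0.964), Efhb (0.943) and Sp140 (0.937), where likeness to Il10 is likeness to a signal at background. With 6 arrays that share 2 groups and so many genes to pick from, such values are a description only.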

How the data were processed

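Per the submitters' processing notes, the deposited log2 values came from the affy package and RMA, which subtracts background, equalises the arrays and combines the probes of each transcript cluster into 1 value. Neither versions nor settings nor a genome build are given in the sources used here. That the scale is log2 was read from the deposited values, between 2.31 and 15.07.

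Of 35512 rows, 21789 were paired with exactly 1 gene by the platform annotation, and per gene only the row with the highest overall mean was kept, which left 19938 genes. All 9 genes matched a RefSeq entry of the same symbol by gene identifier (assembly GRCm38.p6, used for names and neighbours only). No filter on dim genes was set, and positions in the genome are left out.

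The comparison used limma 3.58.1 (lmFit and eBayes, two-sided, in R 4.3.3) over all 19938 genes, with Benjamini-Hochberg adjustment and a threshold of 0.05. Every adjusted p comes from this fit unless another setting is named, and intervals are 95% intervals of the moderated fit. The fit was also run on simulated data with independent noise and added differences larger than those of the 9 genes. That run therefore does not show whether differences as small as theirs would be found. Ratios within an array were compared by exact permutation of the arrays. The genes and lists were chosen with earlier results of these data known. The text names all 9 genes, the 4 genes of each list with the lowest adjusted p, Cd3d, Cd3e, Cd3g, Cd4 and Cd8a, and the 3 genes most like each of Foxp3, Il2ra and Il10. Jak1, Tyk2, Stat3, Icosl and Tnfsf18 were named for their roles after their values had been seen. The labels name no batch. Precision is limited by the number of arrays.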

Additional observations from a re-analysis of the deposited data

How the results depend on the processing

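None of the 9 genes passed the threshold under any of the 15 other settings (0 of 131 values from limma). The settings were quantile normalization, a filter on genes under the 40th percentile, an offset of 16, every row tested, the mean of a gene's rows, array weights, a robust prior with an intensity trend, a replicate block, each array left out, and intrakidney tumors 2 and 3 left out. The filter kept 5 of the 9 genes. The lowest adjusted p was 0.0597, for Il10ra with array weights, which rest mostly on intrakidney tumor 3 (weight 2.57) and subcutaneous tumor 2 (3.55). Of the 131 values 128 kept their sign. The 3 others were Tnfrsf4 without intrakidney tumor 1 (0.067) or without subcutaneous tumor 2 (0.0027), and Il10ra without intrakidney tumors 2 and 3 (0.0094). The cause was not tested. Without 1 array Il10 ranged from -0.12 to -0.05 (intrakidney tumor 2 left out) and Tnfrsf4 ranged from -0.17 to 0.067. Foxp3 ranged from -0.22 to -0.15 and Icos from -0.41 to -0.26 over all settings.

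Over all genes, 46 passed as deposited. The count was 54 after quantile normalization, 101 without dim genes, 74 with the offset, 138 with the trend, 624 with array weights, 30 without intrakidney tumors 2 and 3, where the lone intrakidney array is assumed to vary like the rest, and 0 when every row was tested (2206 at an unadjusted p of 0.05 in limma). Without 1 array it ranged from 2 (without subcutaneous tumor 1) to 33, with 3, 4 and 21 without subcutaneous tumor 2, subcutaneous tumor 3 or intrakidney tumor 1. The replicate block gave 0 genes (1825 at an unadjusted p of 0.05 in limma) and 0 of the 9. Deviations of same-numbered tumors correlated at 0.37, -0.16 and 0.10, other pairs at -0.44 to 0.43, too wide to exclude a shared batch.

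Of the genes in the lists around the 9, 0 passed as deposited. The count, added after the data were seen, was 1 after quantile normalization (Cd14), 3 without dim genes (Bcl3, Cd14 and Sbno2), 2 with the offset (Bcl3 and Cd14), 5 with the trend (these 3, Socs3 and Aqp1) and 14 with array weights, Bcl3, Socs3, Sbno2, Cd3d, Cd3e, Cd4, Ctla4, Prdm1 and Il2rb among them. It was 1 without intrakidney tumors 2 and 3 (Cyp2e1), and from 0 to 1 without 1 array (Aqp1, without intrakidney tumor 1).

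Relative to the Cd3 genes, without intrakidney tumors 2 and 3 the differences of Icos, Tnfrsf4 and Tnfrsf18 turned to -0.21, -0.13 and -0.23. With Cd3d and Cd3e alone, a choice made after the data were seen, all 9 kept their sign. That was fixed in advance, as none of the 9 fell as far as Cd3d (-0.49) or Cd3e (-0.41). The Foxp3 difference was 0.27 with separate groups (exact permutation p = 0.1, not adjusted). Il2ra, Ikzf2, Tnfrsf18, Il10rb and Il10, whose signal was at background, were separate too. The share of all genes separate on this ratio was not counted, so the separations cannot be read as particular to these genes. On the ratio to all 3 Cd3 genes that share was 55.9%. With Cd3d and Cd3e alone, intrakidney tumors 2 and 3 were both above intrakidney tumor 1 only for Icos, Tnfrsf4 and Tnfrsf18. Relative to the macrophage markers, Il10rb turned to -0.010 without intrakidney tumors 2 and 3, and ranged from -0.043 (without intrakidney tumor 3) to 0.071 without 1 array, with -0.00032 without subcutaneous tumor 1. The dim signal of Il10 and Il2ra limits what these arrays can show for them.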
